A study of Mus musculus with 2 samples.

Results

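Open chromatin was described at 10 genes that hold sister chromatids together or tie telomeres to the nuclear envelope in meiosis, out of 21911 protein-coding genes. The genes were chosen by name: the meiotic cohesin subunits Rec8, Smc1b and Stag3, their mitotic paralogs Rad21, Smc1a and Stag2, and the telomere attachment genes Majin, Terb1, Terb2 and Sun1. The assay was DNase-seq, which maps the positions where DNase I can cut the chromatin. The tissue was whole testis of male B6CASTF1/J mice, first-generation hybrids of C57BL/6J and CAST/EiJ, aged 14 days, with no treatment and no modified allele named in the labels. There was 1 group of 2 libraries, so no conditions could be compared, and differences between genes are described without a test. Replicate 1 was labelled as tissue of 3 males, and the number of animals in replicate 2 is not stated. Since 1 donor label covers both libraries, part of their spread may be technical.

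Cohesin is a ring-shaped complex that encloses sister chromatids, and its subunits are an SMC1 and an SMC3 protein, a kleisin that closes the ring and a STAG protein. Germ cells entering meiosis make their own versions of the kleisin, of SMC1 and of STAG, which build the chromosome axis and keep sister chromatids joined through the divisions. In meiotic prophase the complex of TERB1, TERB2 and MAJIN fixes telomeres to the inner nuclear membrane, where SUN1 links them to the cytoskeleton that moves chromosomes.

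All 10 promoters held a peak in both libraries, beside 68.7% of all protein-coding genes. A promoter peak is a deposited peak within 1000 bp of any annotated start of the gene, and its value is the authors' own signal for that peak, on a scale that no label or header explains. All 10 also passed in the shorter, stricter peak lists, beside 63.4% of all genes. In the longer lists, the members had a median promoter value of 4.83 in replicate 1 and of 4.97 in replicate 2, which gives 4.90 ± 0.0989 (mean ± SD, n = 2). Over all 15057 open promoters, those with a peak in both libraries, the median was 4.04 and 3.68 (3.86 ± 0.255). The members ranged from 2.37, at Rec8 in replicate 1, to 17.5, at Sun1 in replicate 1. In bulk tissue, fewer cells of a type with an open promoter and less signal per cell cannot be told apart.

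Replicate 1 had 101172 peaks and replicate 2 had 117359, and the depth in reads is unknown. Of the marker genes of testis cell types, all 5 of spermatogonia, all 5 of meiotic spermatocytes and all 5 of Sertoli cells were open in both libraries. Their summed values ranged from 30.4 to 30.5 for spermatogonia, from 40.3 to 45.7 for meiotic spermatocytes and from 12.2 to 12.8 for Sertoli cells. In both libraries Dazl and Ddx4 were the highest in the spermatogonia list, and Prdm9 and then Sycp3 in the spermatocyte list. A sum thus depends on the genes listed, and whether each marker is open in its named cell type alone was not tested. None of 5 spermatid markers had a promoter peak in both: Prm1, Prm2, Tnp2 and Acrv1 had no promoter peak in either library, and Tnp1 had 0.226 in replicate 2 alone. Of Leydig cell markers 4 of 5 were open (all but Hsd3b1, with sums of 4.38 and 5.23), and of peritubular myoid markers 3 of 4 (sums of 3.52 and 3.67). Of endothelial markers 2 of 5 were open (sums of 1.21 and 1.35) and of leukocyte markers 1 of 5 (0.763 and 0.196). Pecam1, Tek, Emcn, Adgre1, C1qa and Cd3e had no promoter peak in either library. The sums also take in peaks found in 1 library alone. These were at Actg2 of the myoid list (0.291 in replicate 2) and Cd14 of the leukocyte list (0.441 in replicate 1). The part that each cell type has in the values of the 10 genes was not tested.

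**Figure D1:**
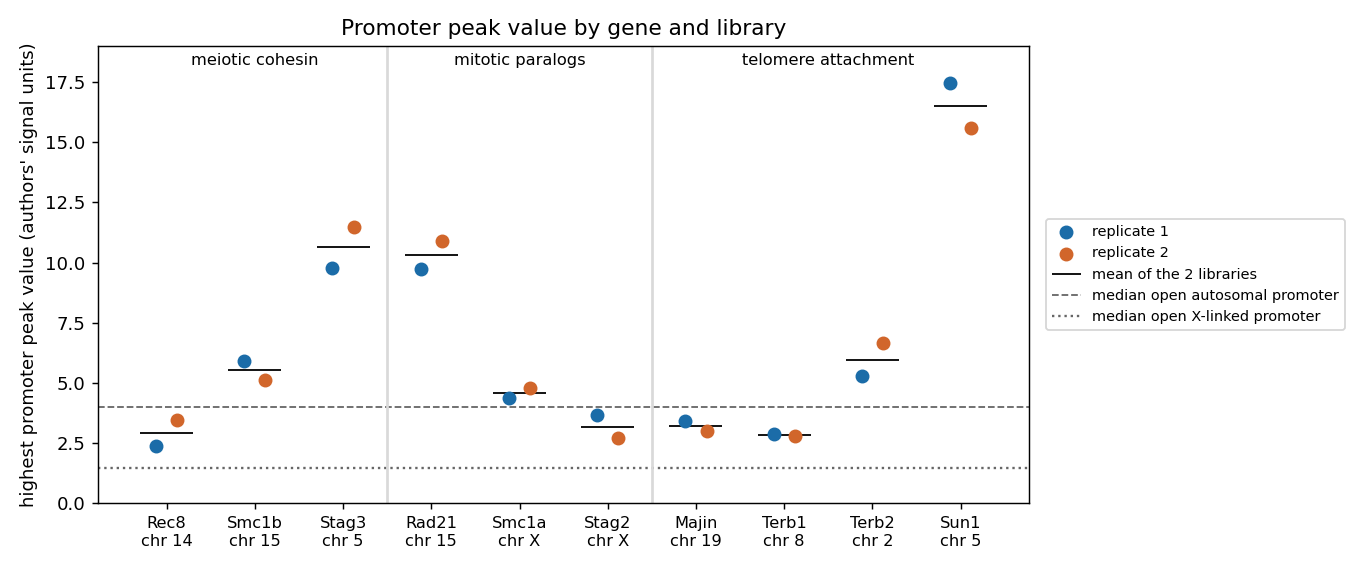
Highest promoter peak value (authors' signal units, y axis) of each gene, with its chromosome, in replicate 1 and replicate 2 (points) and their mean (short line). The dashed and dotted lines mark the median open autosomal and X-linked promoter; Sun1 is highest in both libraries, and Smc1a and Stag2 lie above the X-linked median.

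The promoter DNA is shown for the meiotic subunits and their mitotic paralogs, because they are compared below, and for Majin and Terb2, the telomere attachment genes with the highest and the lowest CpG ratio. Each line gives the stretch of the highest promoter peak that is common to both libraries and lies outside all annotated exons, read 5′ to 3′ on the gene's strand. The letters come from the C57BL/6J reference (mm10, GRCm38), so the CAST/EiJ allele is not shown. Capitals mark bases inside a footprint of both libraries, a footprint being a short stretch that the authors listed as protected from cutting within open DNA.
Rec8, chr14:55617841-55618036, plus strand: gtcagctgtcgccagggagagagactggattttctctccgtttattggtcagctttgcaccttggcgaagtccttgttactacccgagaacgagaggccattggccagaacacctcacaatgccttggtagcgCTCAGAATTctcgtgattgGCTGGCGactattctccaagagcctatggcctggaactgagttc
Rad21, chr15:51991761-51991880, minus strand: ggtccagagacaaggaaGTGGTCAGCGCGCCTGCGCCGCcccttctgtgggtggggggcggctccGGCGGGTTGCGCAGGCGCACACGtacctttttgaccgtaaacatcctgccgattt
Smc1b, chr15:85131965-85132077, minus strand: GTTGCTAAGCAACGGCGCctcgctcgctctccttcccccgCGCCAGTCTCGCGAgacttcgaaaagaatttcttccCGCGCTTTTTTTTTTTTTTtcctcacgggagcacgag
Smc1a, chrX:152016296-152016427, plus strand: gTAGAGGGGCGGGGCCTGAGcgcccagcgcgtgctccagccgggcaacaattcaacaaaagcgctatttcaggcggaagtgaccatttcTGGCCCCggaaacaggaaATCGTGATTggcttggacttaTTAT
Stag3, chr5:138280121-138280239, plus strand: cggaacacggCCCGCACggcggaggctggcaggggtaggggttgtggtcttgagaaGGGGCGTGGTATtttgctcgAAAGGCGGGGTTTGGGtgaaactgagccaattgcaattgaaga
Stag2, chrX:42149021-42149300, plus strand: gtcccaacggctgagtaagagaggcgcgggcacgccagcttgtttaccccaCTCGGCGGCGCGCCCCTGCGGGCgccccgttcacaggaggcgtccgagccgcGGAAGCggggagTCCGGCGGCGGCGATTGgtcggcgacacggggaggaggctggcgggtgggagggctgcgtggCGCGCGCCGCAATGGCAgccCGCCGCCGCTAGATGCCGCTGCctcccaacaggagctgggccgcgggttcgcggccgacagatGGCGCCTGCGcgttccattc
Majin, chr19:6184221-6184387, plus strand: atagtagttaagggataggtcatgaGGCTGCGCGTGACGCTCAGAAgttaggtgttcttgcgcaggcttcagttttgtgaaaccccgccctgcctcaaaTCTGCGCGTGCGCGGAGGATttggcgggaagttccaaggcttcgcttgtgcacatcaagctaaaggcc
Terb2, chr2:122186201-122186271, plus strand: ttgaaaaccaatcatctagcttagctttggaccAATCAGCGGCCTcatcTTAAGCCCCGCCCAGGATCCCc

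Footprints found in both libraries covered 8.16% of the printed bases of Rec8 and 45.1% of those of Smc1b. The share was 29.4% for Stag3, 37.5% for Rad21, 29.5% for Smc1a and 33.9% for Stag2. It was 24.6% for Majin and 46.5% for Terb2. All 10 genes had at least 1 footprint shared by both libraries in the highest promoter peak. As background, 14045 of all protein-coding genes (64.1%) had such a shared footprint in a promoter peak, beside 15057 genes that were open. Most open promoters thus had one. Over all promoter peaks of a gene, the median open gene had 6 footprints in replicate 1 and 7 in replicate 2. The median number of shared footprints was 4. The highest peaks of the 10 genes held 56 footprints in replicate 1 and 59 in replicate 2, and 43 of the former overlapped one of the latter by at least 1 bp. The highest peaks were centred between 166.5 bp upstream of the annotated 5′ end, at Stag2, and 80.5 bp downstream, at Stag3.

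Rec8, the meiotic kleisin, lies on the plus strand at chr14:55618037-55625395. Its single promoter peak had a value of 2.37 in replicate 1 and 3.46 in replicate 2 (2.91 ± 0.772, SD, n = 2). The values stood at percentiles 37.5 and 48.4 of the open promoters, below the median in both libraries. The log2 ratio of replicate 2 over replicate 1 was 0.55, outside the range of -0.54 to 0.36 that held the 5th to 95th percentile of open promoters. The other 9 genes lay inside that range. The part common to both peaks was 320 bp long and reached 124 bp into the first exon. It held 4 shared footprints, of 5 in replicate 1 and 6 in replicate 2.

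Smc1b encodes the meiotic SMC1 protein and lies on the minus strand at chr15:85064689-85131964. Its highest peak had a value of 5.92 in replicate 1 and 5.13 in replicate 2 (5.53 ± 0.556), above the median open promoter in both. All 4 footprints of replicate 1 overlapped footprints of replicate 2, which had 5. The gene faces Ribc2 on the opposite strand, with 114 bp between the annotated 5′ ends, so the same peak lay in the promoter windows of both genes. The signal of the 2 promoters cannot be told apart, and of the 200 bp common to both libraries 87 bp were in exons of Smc1b or Ribc2. A second peak, 916 and 936.5 bp inside the gene, was small, at 0.435 and 0.544.

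Stag3 encodes the meiotic STAG subunit and lies on the plus strand at chr5:138280240-138312393. It had the highest value of the meiotic cohesin genes, with 9.80 in replicate 1 and 11.5 in replicate 2 (10.6 ± 1.18), percentiles 80.4 and 86.7 of the open promoters. Its peak also held the most footprints of the 10 genes, 9 in replicate 1 and 11 in replicate 2, of which 8 were shared. It was also the widest of the 10 highest peaks, at 400 bp in replicate 1 and 480 bp in replicate 2. Most of the common stretch, 261 of 380 bp, was in exons of Stag3. The windows of Gpc2 and Gm43720, on the opposite strand with 5′ ends 235 and 282 bp from that of Stag3, held the same peak.

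The libraries differed in the width of the open region at Stag3. Within 1000 bp of the 5′ end, 1172 bp were listed at a false discovery rate (FDR) below 0.05 in replicate 1 and 1912 bp in replicate 2. The difference lay on both sides of the peak, and replicate 2 alone had a small upstream peak of 0.328. The other 9 genes differed by at most 220 bp between the libraries on this measure.

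Rad21, the kleisin of mitotic cohesin, lies on the minus strand at chr15:51962240-51991747. The highest peak of Rad21 had a value of 9.73 in replicate 1 and 10.9 in replicate 2 (10.3 ± 0.821), both above either value of Rec8. The peak of replicate 2 was centred further upstream, at 123.5 bp against 53.5 bp from the 5′ end, and the common 120 bp held no exon. Of 6 and 5 footprints, 2 were shared, and both lie in the printed sequence. A smaller peak inside the gene had 1.74 and 1.23.

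Smc1a, the SMC1 protein of mitotic cohesin, lies on the plus strand at chrX:152016428-152062694. Its highest peak had a value of 4.37 in replicate 1 and 4.81 in replicate 2 (4.59 ± 0.316). The gene is on the X chromosome, which males carry once. The 572 open X-linked promoters had medians of 1.43 and 1.53 in the libraries, and the 14478 open autosomal ones had 4.22 and 3.83. Among the X-linked promoters Smc1a stood at percentiles 87.1 and 87.9. It faces Ribc1 at 133 bp on the opposite strand, as Smc1b faces its relative Ribc2, and the shared peak lay in both windows in both libraries.

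Stag2, a STAG subunit of mitotic cohesin, lies on the plus strand at chrX:42149317-42277185. The highest peak of Stag2 had a value of 3.67 in replicate 1 and 2.71 in replicate 2 (3.19 ± 0.679), percentiles 79.8 and 69.5 of the open X-linked promoters. It had the most promoter peaks of the 10 genes, 8 and 9, along several annotated starts. Of the others, the highest reached 2.16 and 2.13, 1173.5 and 1193.5 bp downstream of the gene's 5′ end. Bases at an FDR below 0.05 filled 1877 and 1882 of the bases within 1000 bp of the 5′ end, beside a median of 809.5 and 820.5 bp over open X-linked promoters. The signal at Stag2 was thus spread over a broad region, where that of Rec8 filled 577 and 578 bp, below the median of 907 and 930 bp over open autosomal promoters.

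**Figure D2:**
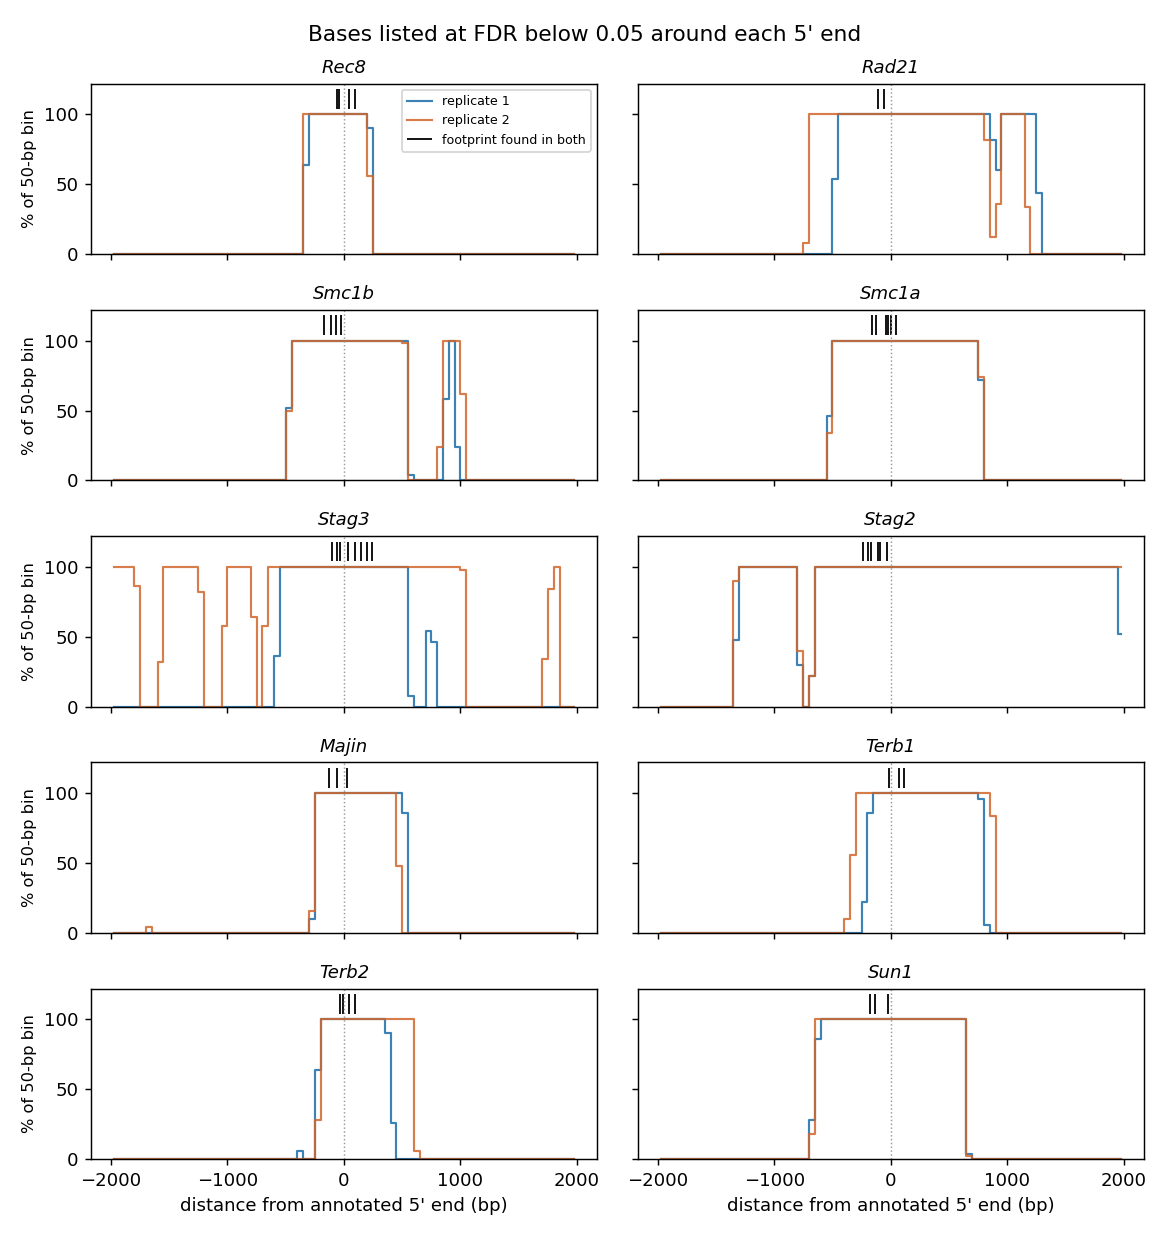
Share of each 50-bp bin listed at an FDR below 0.05 (y axis, percent) against distance from the annotated 5′ end (x axis, bp, negative upstream) for the 10 genes, with replicate 1 and replicate 2 as lines and shared footprints as ticks. Rec8 has a narrow region in both libraries and Stag2 a broad one, and at Stag3 the region of replicate 2 reaches further than that of replicate 1.

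Set side by side, the 3 pairs of paralogs did not share a direction. Rad21 was above Rec8 by 4.11-fold in replicate 1 and 3.15-fold in replicate 2, a log2 ratio of Rec8 over Rad21 of -1.85 ± 0.27 (SD, n = 2). Smc1b was above Smc1a by 1.36-fold and 1.07-fold (log2 0.27 ± 0.24), a difference close to its spread. Stag3 was above Stag2 by 2.67-fold and 4.24-fold (log2 1.75 ± 0.47). In each pair the values of the 2 genes did not overlap between libraries, and the difference was not tested.

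The pairs with an X-linked gene depended on the scale. Divided by the median open promoter of its chromosome class, Smc1b was at 1.40 and 1.34 and Smc1a at 3.05 and 3.15, a mean log2 ratio of -1.18 ± 0.079, the opposite direction. On the same scale Stag3 was at 2.32 and 3.00 and Stag2 at 2.56 and 1.77, with log2 ratios of -0.14 in replicate 1 and 0.76 in replicate 2, so the libraries differed in sign. This division removes the whole difference between the class medians, not that of copy number alone. Rec8 and Rad21 are both autosomal, and their ratio does not change with this scaling. With all promoter peaks summed in place of the highest, the log2 ratio was -0.059 for Smc1b over Smc1a and 0.56 for Stag3 over Stag2.

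The pairs also depended on which start and which peaks were used. At the RefSeq 5′ end alone, which lies upstream of the GENCODE 5′ end in Rad21 and Stag3, Rad21 had no peak in either library, and Rec8, with 2.37 and 3.46, was then the higher of that pair. Stag3 there had no peak in replicate 1 and 0.411 in replicate 2, below Stag2 with 3.67 and 2.71. With only peaks outside the windows of other genes, Stag3 had no peak and Stag2 kept its values, and neither Smc1b nor Smc1a had a peak.

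**Figure D3:**
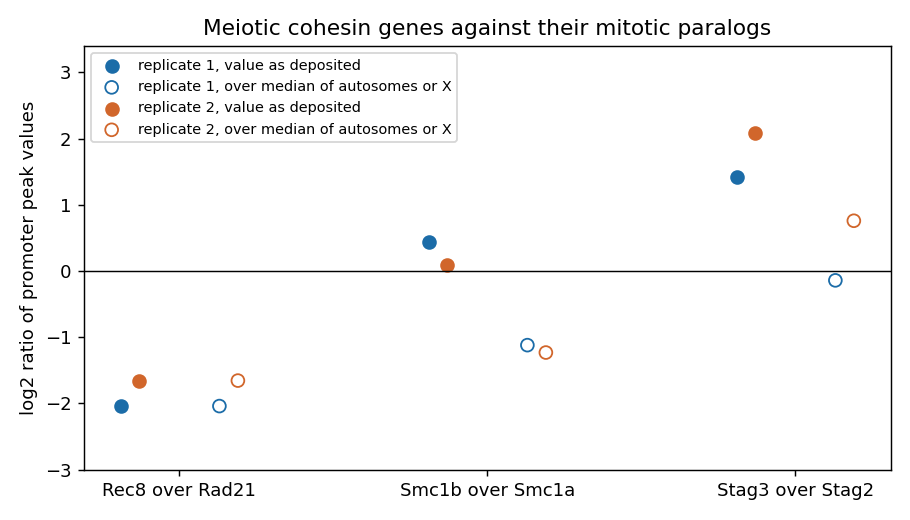
Log2 ratio of the meiotic over the mitotic gene (y axis) for the 3 pairs (x axis), per library (points), from values as deposited and after division by the median open promoter of the chromosome class. Rec8 is below Rad21 on both scales, and Smc1b over Smc1a changes sign between them.

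Majin, the membrane-bound component of the telomere complex, lies on the plus strand at chr19:6184388-6224225. In Majin the highest peak reached 3.43 in replicate 1 and 3.02 in replicate 2 (3.22 ± 0.290), at percentiles 45.9 and 45.1 of the open promoters. All 3 footprints of replicate 1 overlapped one of replicate 2, which had 6. Replicate 1 alone had a second, lower peak of 0.817 just downstream.

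Terb1, which binds the shelterin protein TRF1 at telomeres, lies on the minus strand at chr8:104446719-104509910. In Terb1 the highest peak reached 2.87 in replicate 1 and 2.81 in replicate 2 (2.84 ± 0.0378), the smallest spread of the 10 genes. The values were at percentiles 41.7 and 43.4 of the open promoters. Of the 240 common bp, 150 were in exons of Terb1, and 3 footprints were shared.

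Terb2, which bridges TERB1 and MAJIN, lies on the plus strand at chr2:122186272-122206397. Its single promoter peak had a value of 5.30 in replicate 1 and 6.65 in replicate 2 (5.97 ± 0.952), above both values of Majin and of Terb1. Patl2 starts 83 bp away on the opposite strand and shares the peak, so this value cannot be given to Terb2 alone. The peak overlapped coding sequence of Terb2 as well as its first exon's start, and 4 of the 5 footprints of replicate 1 overlapped one of the 3 in replicate 2.

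Sun1, a protein of the inner nuclear membrane that is made in many tissues, lies on the plus strand at chr5:139200637-139249840. Its highest peak had a value of 17.5 in replicate 1 and 15.6 in replicate 2 (16.5 ± 1.34), percentiles 97.3 and 94.7 of the open promoters. Both values were above every value of the other 9 genes. The peak held 5 footprints in each library, and 3 were shared. The 3 partners Majin, Terb1 and Terb2 all lay below 7 in both libraries.

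In all, 4 of the 10 genes (Smc1b, Smc1a, Stag3 and Terb2) shared their highest peak with the window of a gene on the opposite strand. Where only peaks outside the windows of other protein-coding genes were used, 6 members had a promoter peak in both libraries: Rec8, Rad21, Stag2, Majin, Terb1 and Sun1. Neither count was computed over all genes, so neither is read as a trait of these 10. Promoters of the 10 genes also differed in CpG content. In 300 bp centred on the highest peak, the observed over expected CpG ratio was 0.368 at Terb2, 0.544 at Rec8 and 0.609 at Terb1, below the median of 0.8 over open promoters, and 0.940 to 1.15 at the other 7.

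Consensus motifs were searched on both strands in the same 300-bp windows, and a match is a description of letters, not a binding site. The NFY box CCAAT was found at 8 of the 10 genes (37.1% of all open promoters), and the E2F core TCCCGC also at 8 (41.4%). The SP and KLF box GGGCGG was found at 6 (68.8%), ETS CCGGAAG at Rad21 and Terb1 (18.1%), and YY1 AAGATGG at Rad21 and Terb2 (7.45%). The E-box CACGTG was found at Stag3 alone (10.9%) and CNCCTCAG, reported for the meiotic regulator STRA8, at Sun1 alone (9.73%). No member's window held MYB AACTGNC (9.96%), CRE TGACGTCA (3.58%), RFX GTTGCCA (4.24%) or NRF1 GCGCATGC (6.12%).

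Some matches lay in capitals of the printed sequences. In Smc1a, GGGCGG at 126 bp upstream of the 5′ end was inside a shared footprint. In Terb2 the reverse complement CCGCCC at 15 bp upstream was also inside one. Other matches to this box were partly inside one, at Rad21 98 bp upstream, or outside, at Rad21 78 bp and Majin 83 bp upstream. No NFY or E2F match in the printed sequences lay fully inside a shared footprint. In the matching stretch of Sun1, which is not printed, an NFY box (ATTGG on the gene's strand) 15 bp upstream did. Rec8 had 3 NFY boxes, each as attgg on the gene's strand, starting 153, 97 and 48 bp upstream, and only the last touched a shared footprint.

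Distal peaks were those that lay in no gene's promoter window and at most 50 kb from a start. Of the 10 genes, 8 had at least 1 in both libraries, beside 83.9% of all protein-coding genes. The exceptions were Stag2, with 0 and 1, and Terb2, with 0 and 4. The members had a median of 2 in replicate 1 and 4 in replicate 2, and all genes had 4 in each, with quartiles of 2 and 7 and of 2 and 8. Of 22 distal peaks in replicate 1 and 39 in replicate 2, 17 in each overlapped a peak of the other library. Most distal peaks of replicate 2 thus had no counterpart in replicate 1, while most of replicate 1 had one in replicate 2. Replicate 2 also had more peaks in all, 117359 against 101172. The overlap of distal peaks over all genes was not computed, so this is not read as a trait of the 10 genes. The values of the distal peaks ran from 0.167 to 1.80 and from 0.140 to 1.25, all below the promoter values of the same genes.

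The distal peaks found in both libraries lay mostly outside the genes. Upstream of Rec8, peaks at 4.57 and 3.28 kb had 0.479 and 0.629 in replicate 1, and both had 0.710 in replicate 2. Majin had a close pair 9.91 and 9.43 kb upstream, with 0.699 and 0.554 in replicate 1 and 0.902 and 0.921 in replicate 2. At Smc1b the highest lay 19.6 kb upstream (0.887 and 0.796), and at Terb1 the only shared one 23.1 kb upstream (0.565 and 0.868). Rad21 had shared peaks 8.91 kb downstream, in an exon, and 28.64, 46.2 and 49.67 kb upstream. The peak at 46.2 kb was the highest of these, with 0.548 and 1.06. Stag3 (0.452 and 0.427) and Smc1a (0.167 and 0.393) each had a shared peak beyond the end of the gene. The highest distal value of all was beyond the end of Sun1, at chr5:139282281-139282500 (1.80 and 1.19), and a second shared peak there had 0.688 and 1.25. These peaks were assigned to genes by distance alone.

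**Figure D4:**
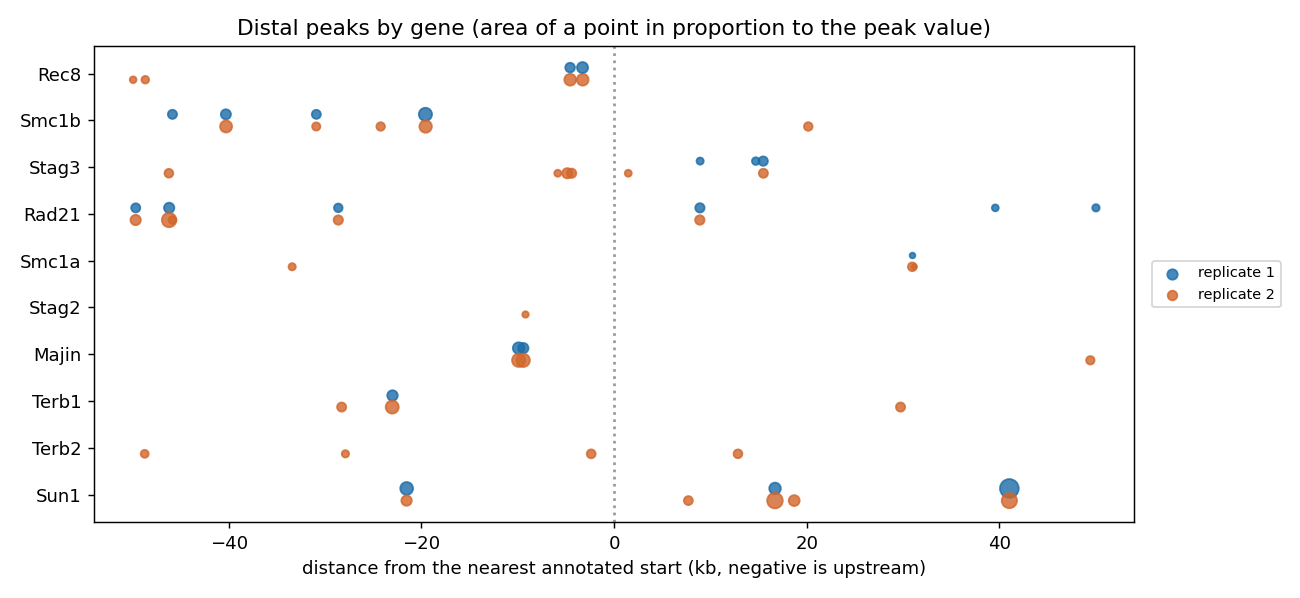
Distal peaks of each gene (rows) by distance from its nearest annotated start (x axis, kb, negative upstream), replicate 1 above and replicate 2 below in each row, with the area of a point in proportion to the peak value. The pairs upstream of Rec8 and Majin and 3 peaks of Sun1 are found in both libraries. So are peaks of Rad21, Smc1b, Stag3, Smc1a and Terb1. Stag2 and Terb2 have distal peaks in replicate 2 alone.

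Of 30 other genes of cohesin, centromere, nuclear envelope and telomere function, 29 were open in both libraries (68.7% of all genes were). The median over all 30, with no peak taken as 0, was 7.96 and 7.11 (7.53 ± 0.602). In the cohesin core, Smc3, the SMC partner in mitotic and meiotic rings, had 16.2 and 15.0, and Stag1, the autosomal mitotic STAG gene, had 15.3 and 13.2. Both were above every cohesin gene among the members. Of the 8 genes of loading, release and cohesion, all were open, led by the acetyltransferase gene Esco2 (12.9 and 15.1) and the release factor gene Wapl (11.9 and 11.1). Of the 5 genes of centromere protection and cleavage, all were open, with the highest means at the shugoshin gene Sgo1 (12.6 and 11.3) and the separase gene Espl1 (7.31 and 7.14). In replicate 1 alone, the other shugoshin gene Sgo2a (7.39 and 6.73) was above Espl1.

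All 7 genes of the nuclear envelope group were open, led by Kash5 (11.5 and 13.7), which joins SUN1 to dynein in meiocytes, and Lmnb1, which encodes lamin B1 (10.7 and 9.72). Spdya, whose product activates CDK2 at meiotic telomeres, had 6.09 and 5.64. All 7 shelterin genes were open, with the highest means at Pot1b (9.49 and 9.86) and Terf1 (9.04 and 9.15), which encodes the TRF1 protein bound by TERB1. Acd (9.94 and 7.07) was the highest in replicate 1 alone, and its highest peak also lay in the window of another gene.

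Rad21l, the other meiotic kleisin, was the only gene of the 30 with no promoter peak, at chr2:151645404-151668533 on the minus strand. The nearest peak common to both libraries lay 2187.5 bp upstream of its GENCODE 5′ end, with 3.26 in replicate 1 and 3.29 in replicate 2 and with 5 and 6 footprints. In RefSeq the gene starts 2089 bp further upstream, and this peak overlaps that start. At the RefSeq start, Rad21l thus had a value between the 2 libraries' values for Rec8. The RefSeq 5′ end alone did not raise all genes: Stag1, Nipbl, Wapl, Sgo1 and Sgo2a had no peak there in either library, and Pttg1 had 0.274 and 0.302 in place of 2.15 and 2.37. That setting uses 1 start per gene, where the main values use any GENCODE start, so both the annotation and the starts used differ. For Stag1 the RefSeq 5′ end lies at only -89 bp from the GENCODE 5′ end.

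**Figure D5:**
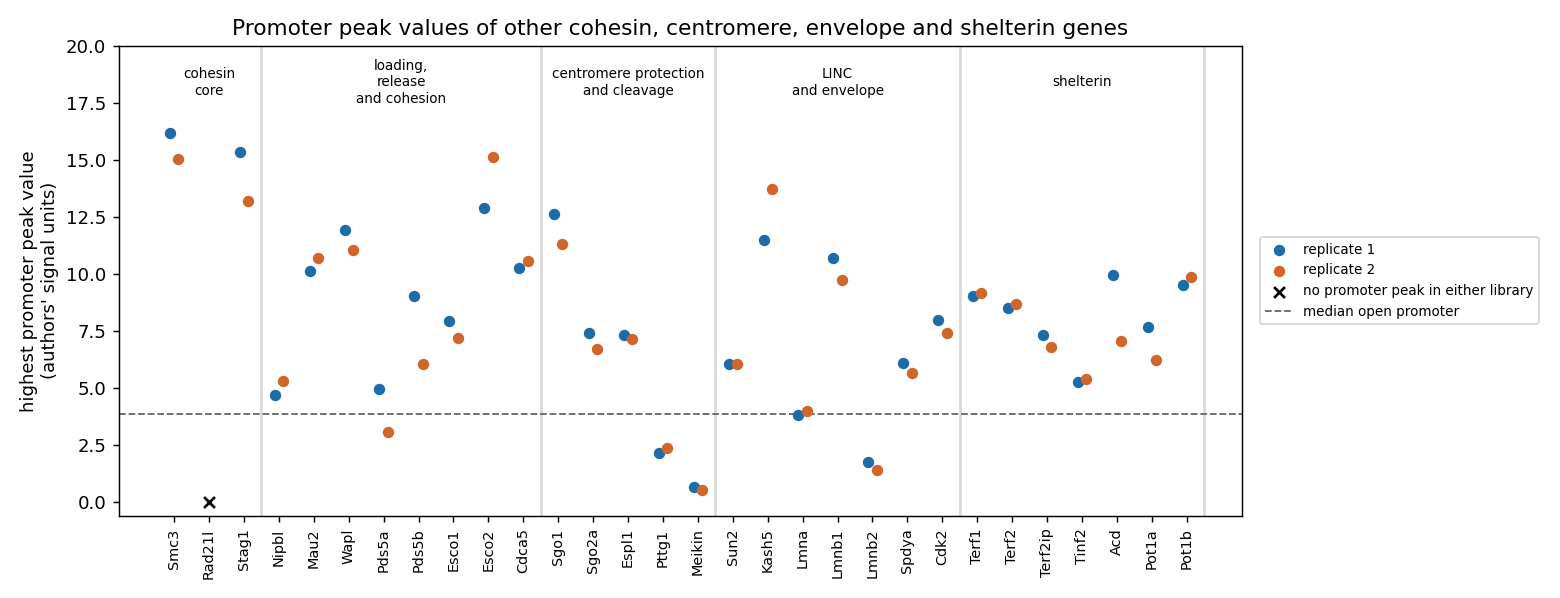
Highest promoter peak value (authors' signal units, y axis) of the 30 other genes by role, in replicate 1 and replicate 2 (points), with the median open promoter dashed. Smc3 and Stag1 are high in both libraries, and Rad21l (cross) has no peak at its GENCODE starts.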

How the data were processed

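Per the labels, 2 DNase-seq libraries of testis were deposited, each with a longer and a shorter peak list, footprints and an FDR track on mm10, made per library. No label or header names the aligner, the callers or their versions. Peak values are the signal column of the peak lists deposited by the authors. Within a library, 100% of these signal values below 1 were whole multiples of 1 step (0.00538 in replicate 1, 0.00377 in replicate 2, within 0.05 steps), whose meaning is not given. The footprint lists deposited by the authors hold a p-value that is 0.01 in all rows, so only their positions were used. The FDR track deposited by the authors holds q-values below 0.05.

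Peaks were joined to 21911 protein-coding genes of GENCODE M21, 1 per symbol, on GRCm38.p6. All peaks lay on the 21 named chromosomes, and 0 beyond an end. A gene's value was its highest peak within 1000 bp of any start, with overlaps from 1 bp. Percentiles are among open promoters. Replicates are given with their mean and SD, as a description with no test. The depth in reads is unknown, so no counting error is given. The counting scripts were tested on simulated data. Python 3.11.15, numpy 2.4.6, pandas 2.3.3 and matplotlib 3.10.9 were used, and samtools 1.23.1 to read mm10.

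The members, lists and motifs were chosen with earlier results of these data known. All members were named. Of the other genes, the rule named the 2 highest per role, those with no promoter peak in a library, and Rad21l, Smc3, Stag1, Kash5 and Spdya, plus genes sharing a member's peak. The added motifs and the distal peaks named were chosen after their values were seen. Alternatives were other windows, the 5′ end alone, shorter lists, summed peaks, unshared peaks, each library alone, other distal reaches and footprints fully inside a peak. The RefSeq 5′ end and scaling by chromosome class were added after the data were seen.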

Additional observations from a re-analysis of the deposited data

How the results depend on the processing

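With windows of 500 or 2500 bp, the 5′ end alone, the shorter lists or either library alone, all 10 genes kept a promoter peak. With unshared peaks only the number was 6. With the RefSeq 5′ end alone it was 8: Rad21 had no peak at that start, and Stag3 had 0.411 in replicate 2 alone. The share of all genes was computed for the main setting and the shorter lists only. Rec8 was below Rad21 except at the RefSeq 5′ end, where Rad21 had no peak and Rec8 had 2.37 and 3.46. Smc1b over Smc1a changed sign with summed peaks (log2 -0.059) and with scaling by chromosome class (-1.18). Stag3 over Stag2 moved from 1.75 to 0.56 with summed peaks, where nested peaks count more than once, and to 0.31 with the scaling. With 1 library left out, these ratios ran from -2.04 to -1.65, from 0.09 to 0.44 and from 1.42 to 2.08. The members' median number of distal peaks, 3 over both libraries, was 1.5 within 25 kb, 7 within 100 kb and 1.75 in the shorter lists. It was 2 or 4 with 1 library left out. Over all genes the median was 2 in each library within 25 kb, 8 and 9 within 100 kb, and 2 in each in the shorter lists. All 10 genes had a shared footprint also where footprints had to lie fully inside the peak. Of 70 values of single genes under the alternatives, 58 moved by less than 1 SD and 12 by more. Most of the 58 did not move at all. Windows of 500 or 2500 bp, the 5′ end alone and the shorter lists left the value of every gene unchanged. The 12 came from summed peaks, unshared peaks and the RefSeq 5′ end. Where a gene had no peak no ratio was formed, but the order turned: Stag3 was below Stag2 with unshared peaks (none against a mean of 3.19) and at the RefSeq 5′ end (0.206 against 3.19, with no peak taken as 0). Smc1b and Smc1a both had no unshared peak. The cause of these changes was not tested beyond what each alternative leaves out. No paired analysis was possible because the study has 1 group. With 2 libraries, an SD has 1 degree of freedom.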

Other observations

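Another 4 letter strings were searched after the printed sequences had been seen, so their presence in those sequences is a description only. The partial RFX site GTTGCNA occurred in the 300-bp window of Smc1b alone of the 10 genes, and in 9.88% of open promoters. In the printed sequence of Smc1b it reads GTTGCTA, 113 bp upstream of the 5′ end and inside a shared footprint. The string TCTCGCGA, part of the site of the factor BANP, occurred at Smc1b and Stag3 and in 2.46% of open promoters, and at Smc1b it was inside a shared footprint 67 bp upstream. A second match there, overlapping the first on the other strand 65 bp upstream, was only partly inside it. The partial NRF1 site GCNTGCGC occurred at Rad21, Stag2 and Majin and in 22.8% of open promoters. At Rad21 it was found at 105 bp upstream, as GCCTGCGC, and at 60 bp upstream, as GCGCAGGC on the gene's strand, each inside a shared footprint. At Majin it read GCGTGCGC, 63 bp upstream and inside a shared footprint, and a second match, 108 bp upstream, was outside shared footprints. The match at Stag2, 33 bp upstream, was partly inside one. The string TTCCCGC, which contains the E2F core, occurred at Smc1b, Smc1a, Majin, Terb1 and Terb2 and in 9.77% of open promoters. In the printed sequences it was partly inside a shared footprint at Smc1b and outside at Majin.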
